A study of Mus musculus with 36 samples.

Results

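The liver of mice that drank distilled water was compared between 4 weeks and 1 week, the interval that follows the early acute phase in this experiment. The 6 arrays compared, of 36 in the series, were chosen by their labels alone: 3 of the 4-week group and 3 of the 1-week group. All mice were male BALB/c animals that carried J558 cells, a mouse myeloma line placed under the skin, and ate standard chow. The 4-week mice were 10 weeks old and the 1-week mice 7 weeks old, so that time and age cannot be told apart. Beside them stood the same comparison in mice that drank OPP, a phenolic extract of oil palm, at 1500 ppm gallic acid equivalents, the same comparison in the spleen of water mice, and the liver of water mice at 18 hours and an age of 6 weeks. Time was read as time after inoculation, although the treatment text of every sample names 4 weeks after inoculation and leaves that reading unsettled. Nothing in the labels says whether an array holds RNA of 1 mouse or of a pool, so the spread between arrays may be in part technical.

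After injury or infection the liver makes acute phase proteins such as serum amyloid A, driven by inflammatory cytokines, and metallothioneins, which bind zinc and copper and answer to metals, glucocorticoids and cytokines. In young rodents the liver also silences genes of fetal and early postnatal life, among them RNA-binding proteins and growth factors, while adult enzymes of drug and steroid metabolism settle into their sex-specific levels. Type IV collagen lines the vessels and ducts of the liver as basement membrane, and its main chains are made from neighbouring genes read in opposite directions.

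Promoters are shown for the gene with the only called probe and for the pairs Mt2 with Mt1 and Col4a1 with Col4a2, whose members stood close together in the comparison. They are RefSeq windows of build GRCm38.p6, reaching from 250 bases before to 50 bases after the start of each gene, written in the direction of the gene. Igf2bp3 has its window at chr6:49214905-49215204 on the minus strand. Capitals mark the letters CACGTG, the E-box bound by many basic helix-loop-helix factors, which were found at 2 places.
Igf2bp3: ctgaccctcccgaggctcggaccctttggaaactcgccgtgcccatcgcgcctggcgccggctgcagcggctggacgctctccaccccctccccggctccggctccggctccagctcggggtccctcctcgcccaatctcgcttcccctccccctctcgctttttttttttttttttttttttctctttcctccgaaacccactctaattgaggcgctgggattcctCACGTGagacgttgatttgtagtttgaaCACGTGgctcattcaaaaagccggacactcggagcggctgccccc
The metallothionein windows are chr8:94172368-94172667 for Mt2 and chr8:94178839-94179138 for Mt1, both on the plus strand. Capitals mark TGCNCNC on either strand, found 6 times in Mt2 and 3 times in Mt1. These letters are a loose form of the core of the metal response element, so not every match need be such an element.
Mt2: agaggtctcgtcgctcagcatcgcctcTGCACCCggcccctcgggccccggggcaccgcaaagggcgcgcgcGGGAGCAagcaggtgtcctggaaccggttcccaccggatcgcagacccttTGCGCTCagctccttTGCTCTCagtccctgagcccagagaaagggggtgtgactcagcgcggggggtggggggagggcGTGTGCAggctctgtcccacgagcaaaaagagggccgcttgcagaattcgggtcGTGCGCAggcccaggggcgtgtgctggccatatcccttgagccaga
Mt1: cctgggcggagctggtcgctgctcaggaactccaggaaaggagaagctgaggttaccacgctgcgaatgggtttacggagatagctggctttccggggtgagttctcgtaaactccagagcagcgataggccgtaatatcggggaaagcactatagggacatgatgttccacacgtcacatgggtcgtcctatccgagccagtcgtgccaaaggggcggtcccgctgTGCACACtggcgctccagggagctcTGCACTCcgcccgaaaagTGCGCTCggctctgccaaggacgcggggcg
The collagen windows are chr8:11312777-11313076 on the minus strand for Col4a1 and chr8:11312555-11312854 on the plus strand for Col4a2. Capitals mark the 78 bases that the windows share, read in opposite directions.
Col4a1: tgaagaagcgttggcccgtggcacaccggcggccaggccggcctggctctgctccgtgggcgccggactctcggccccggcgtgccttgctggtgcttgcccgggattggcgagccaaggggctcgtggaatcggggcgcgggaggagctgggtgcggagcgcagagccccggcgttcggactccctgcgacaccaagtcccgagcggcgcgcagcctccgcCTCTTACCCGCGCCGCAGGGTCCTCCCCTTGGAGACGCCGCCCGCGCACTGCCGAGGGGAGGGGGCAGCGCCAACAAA
Col4a2: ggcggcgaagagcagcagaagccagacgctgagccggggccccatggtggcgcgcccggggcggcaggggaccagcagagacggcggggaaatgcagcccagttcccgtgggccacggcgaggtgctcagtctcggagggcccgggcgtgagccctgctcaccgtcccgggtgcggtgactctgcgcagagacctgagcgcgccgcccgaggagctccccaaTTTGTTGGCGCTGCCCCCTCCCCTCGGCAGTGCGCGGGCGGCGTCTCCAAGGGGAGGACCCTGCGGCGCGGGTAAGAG
Among all 32851 promoter windows of the table, 7.15% held CACGTG and 51% held TGCNCNC, so that the second motif is common. TGCNCNC was found 3 times in Col4a1, 2 times in Col4a2 and once in Igf2bp3, which also held 1 match of the interferon element, found in 3.44% of all windows. D-boxes (TTATGTAA, TTATGCAA or TTACATAA, in 0.938%, 0.743% and 0.938% of all windows), GAANNTTC of the heat shock element (7.86%), TCACNCCAC of the sterol element (1.24%) and TGACGTCA of the cyclic AMP element (1.79%) had no match in these windows. Matches of different motifs did not overlap, each motif was searched on both strands, and a match describes letters only.

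Each value is the authors' ratio of a probe to the median of that probe over the 18 liver arrays, so 1 is the middle of all liver groups and no absolute level is kept. For this reason the label liver could not be checked against hepatocyte genes. Within water mice the array medians on the log2 scale lay between 0.01 and 0.02 at 4 weeks and between -0.03 and 0.02 at 1 week. Replicate 3 of the 1-week group stood apart. The median log2 ratio over 12 measured skeletal muscle genes was -0.06 to -0.02 in the 4-week arrays, against 0.00 and 0.04 in 1-week replicates 1 and 2 and 5.85 in replicate 3. The fixed adipocyte markers had medians of -0.04 to 0.14 at 4 weeks, against 0.02, 0.03 and 1.42 in 1-week replicates 1, 2 and 3. Acta1, skeletal alpha-actin, stood at 1.07, 0.842 and 0.882 in the 4-week arrays, against 0.988, 2.03 and 354 in the 1-week arrays. Ckm, muscle creatine kinase, was at 0.895, 0.988 and 0.867 at 4 weeks, against 0.95, 0.906 and 18.9 at 1 week. These muscle genes, and the immunoglobulin probes described last, were chosen after their values were seen. List counts are therefore also given without this array where it moved them most. Among OPP arrays the fixed skeletal muscle markers were raised in 4-week replicate 3 (median 2.46) and 1-week replicate 1 (0.72). The other arrays of those groups had medians of -0.15 to -0.01. OPP values for genes and lists include the raised arrays. Below, the array with muscle RNA is replicate 3 of the 1-week water group.

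Across all probes, 1 of 23982 passed at a Benjamini-Hochberg adjusted p under 0.05 in limma, which is 0.00417%, and it was lower at 4 weeks. At an unadjusted p under 0.05 there were 1725 probes, or 7.19%. With 1 probe for each of 14739 genes, 0 genes passed, and 596 (4.04%) were higher and 485 (3.29%) lower at an unadjusted p under 0.05. Without 1-week replicate 3 these counts were 357 higher and 531 lower. The list counts of water mice below are to be read beside these values over all genes. All 4-week arrays lay above all 1-week arrays for 1076 genes (7.3%) and below them for 814 (5.52%). The median difference over genes was 0.01 on the log2 scale, and the middle 90% of genes lay between -0.22 and 0.21. For 13293 genes, or 90.2%, the whole 95% interval of the difference lay within 0.5 of 0 on the log2 scale, and for 98.2% it lay within 1. The preceding interval held more calls: 1707 probes (7.12%) passed between 1 week and 18 hours, a comparison that uses the same 1-week arrays.

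Igf2bp3, an RNA-binding protein of fetal tissues that binds Igf2 messenger RNA and is largely silent in adult organs, fell. On the called probe the ratios were 0.645, 0.641 and 0.638 in the 4-week arrays, against 1.01, 1.02 and 0.934 in the 1-week arrays. No 4-week array reached the lowest 1-week array, and the 4-week arrays lay very close together. The difference was -0.62 on the log2 scale (SE 0.08, 95% interval -0.79 to -0.46, limma adjusted p 0.00601, n = 3 each). At 18 hours the same probe had 1.47, 1.31 and 1.47. It lay lower at 1 week by -0.52 on the log2 scale (adjusted p 0.000367), so each later group of water mice stood below the one before it.

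The other Igf2bp3 probe had 0.651, 0.806 and 0.7 in the 4-week arrays, against 0.965, 0.973 and 0.923 in the 1-week arrays, again without overlap. Its difference of -0.41 (SE 0.11) did not pass (adjusted p 0.476). In OPP mice the probes changed places. There the other probe was the single call, with 0.581, 0.604 and 0.644 at 4 weeks, against 1.19, 1.03 and 1.07 at 1 week, a difference of -0.84 (SE 0.11, adjusted p 0.019). The probe called in water mice had 0.749, 0.79 and 0.676 in OPP mice at 4 weeks, against 1.05, 0.96 and 0.989 at 1 week, a difference of -0.44 (adjusted p 0.145). Both probes therefore lay lower in all 4-week arrays of both drinks than in any 1-week array of the same drink. Water minus OPP, the change differed by -0.18 on the called probe and 0.43 on the other, with an adjusted p of 0.968 for each. In the spleen of water mice the called probe had 0.981, 1.1 and 0.976 at 4 weeks, against 0.957, 1.02 and 1.12 at 1 week. The liver change minus the spleen change, which holds the same liver difference, was -0.61 (adjusted p 0.0133). On the other probe it was -0.22 and did not pass (adjusted p 0.353). The call in liver was lost without 1-week replicate 2 (adjusted p 0.0841), 4-week replicate 2 (0.0597) or 4-week replicate 3 (0.0631), while the difference stayed between -0.66 and -0.60 without any 1 array.

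**Figure D1:**
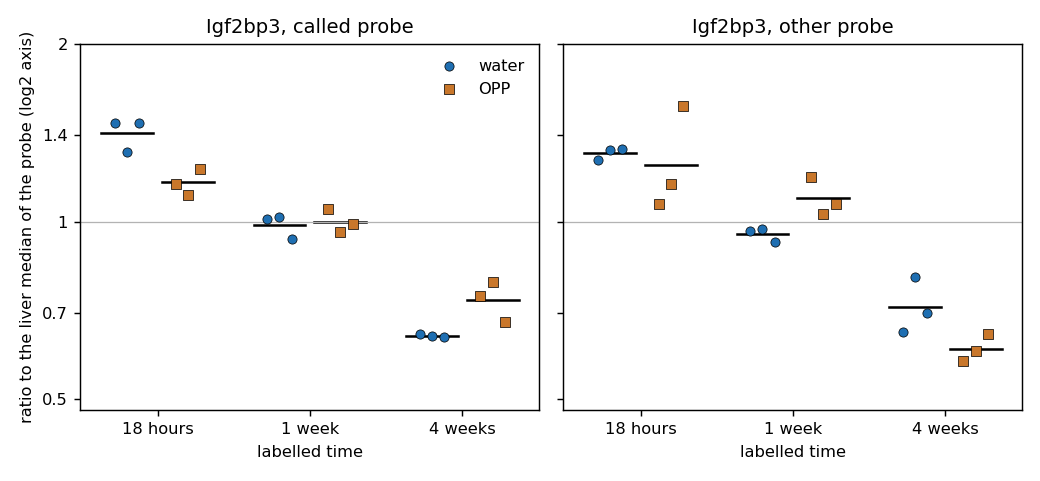
Ratios of the 2 Igf2bp3 probes (log2 axis) on each liver array at 18 hours, 1 week and 4 weeks; circles are water mice, squares OPP mice, and bars the mean of the log2 values of 3 arrays. On both probes the 4-week arrays of each drink lie below its 1-week arrays, and the 4-week water arrays of the called probe lie between 0.638 and 0.645.

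Igf2bp3 is one of 14 measured genes on a list of liver genes that decline after birth. The list as a whole gave no common shift. Its median was -0.05, with 2 higher and 2 lower at an unadjusted p under 0.05, or 1 and 1 without 1-week replicate 3. Igf2bp3 itself is counted as lower in both cases. Afp, alpha-fetoprotein, had a difference of -0.00, and Gpc3, a surface proteoglycan of fetal liver, of -0.19, or -0.01 without that array. Igf2, the growth factor whose message Igf2bp3 binds, stood at 0.927, 0.947 and 0.976 at 4 weeks, against 1.01, 0.934 and 2.02 at 1 week. The high Igf2 value came from the array with muscle RNA, and without it the difference was -0.03 in place of -0.38. Afp, Gpc3 and Igf2 were chosen after their values were seen.

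The next genes in order of p did not pass. Nox4, an NADPH oxidase that makes hydrogen peroxide, had ratios of 2.15, 2.31 and 2.8 at 4 weeks, against 1.33, 1.07 and 0.954 at 1 week. Every 4-week array lay above every 1-week array, and the difference was 1.12 (SE 0.18, 95% interval 0.75 to 1.49, adjusted p 0.0512). In OPP mice Nox4 had 1.49, 1.6 and 2.24 at 4 weeks, against 0.858, 0.97 and 1.03 at 1 week, a difference of 0.88 (adjusted p 0.182). Without 1-week replicate 1 the adjusted p was 0.0496 in water mice, and without each other array it was between 0.0625 and 0.435. At 18 hours the water arrays read 0.729, 0.886 and 0.639, below every later water array.

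Others of the 10 genes with the smallest p were also separated between groups. Choice by small p favours such separation, so it is no further evidence. Of all genes, 7.3% had all 4-week arrays above all 1-week arrays and 5.52% below them. S100a10, the partner of annexin A2, had 0.743, 0.602 and 0.655 at 4 weeks, against 1.02, 1.02 and 1.16 at 1 week (difference -0.68, SE 0.13, adjusted p 0.154). Thbd, thrombomodulin, the endothelial receptor of thrombin, had 0.889, 0.79 and 0.887 at 4 weeks, against 1.15, 1.06 and 1.28 at 1 week (-0.44, adjusted p 0.262). Both were below their 1-week range in every 4-week array. Fzd7, a Wnt receptor, stood at 1.14, 1.08 and 1.15 at 4 weeks, against 0.91, 0.72 and 0.834 at 1 week (0.46, adjusted p 0.208). Slc39a4, a zinc importer, had 0.653, 0.707 and 0.527 at 4 weeks, against 1.14, 1.43 and 1.06 at 1 week (-0.94, adjusted p 0.291), but its second probe gave -0.27. Olfr394, an olfactory receptor gene, had a difference of 0.41 (adjusted p 0.291). Etfbkmt, a mitochondrial lysine methyltransferase, had 0.841, 1.33 and 1.06 at 4 weeks, against 0.588, 0.7 and 0.58 at 1 week (0.77, adjusted p 0.262), and -0.57 in OPP mice.

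**Figure D2:**
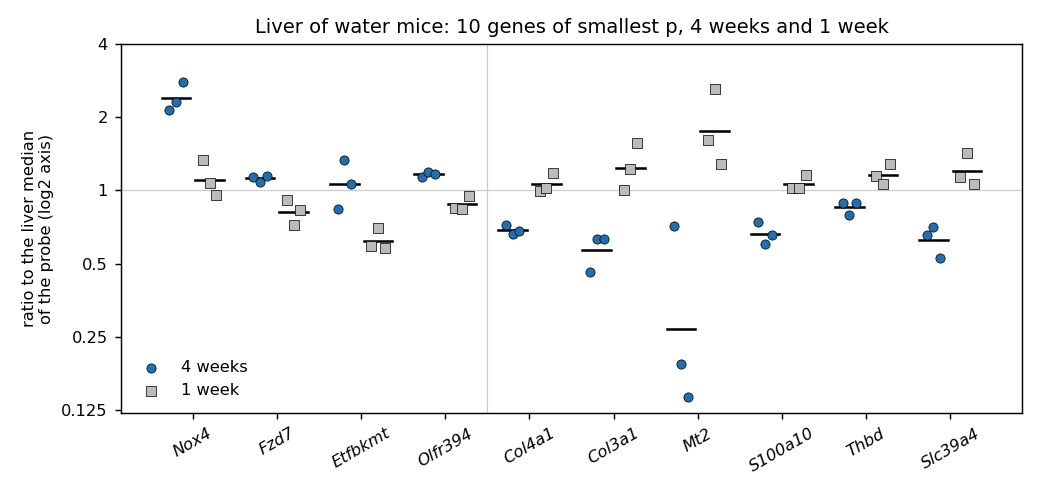
Ratios (log2 axis) of the 10 genes with the smallest p on each array of water liver, 4 weeks (circles) beside 1 week (squares); bars are means of the log2 values of 3 arrays. The groups of every gene shown are separated, which the choice by small p favours. At 4 weeks Nox4 is highest, at 2.15 to 2.8, and Mt2 the most spread, from 0.141 to 0.711. None of these genes passed the adjusted threshold.

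Both type IV collagen chains printed above had negative differences, without passing. Col4a1, the first chain of type IV collagen, had ratios of 0.72, 0.661 and 0.678 at 4 weeks, against 0.999, 1.02 and 1.18 at 1 week. Its groups were apart, with a difference of -0.63 (SE 0.10, 95% interval -0.84 to -0.42, adjusted p 0.0512). Col4a2, the partner chain from the neighbouring gene whose window is printed above, had 0.79, 0.687 and 0.721 at 4 weeks, against 1.12, 1.02 and 1.17 at 1 week (-0.59, SE 0.14, adjusted p 0.408). Both chains were thus below their 1-week range in all 4-week arrays. In OPP mice Col4a1 read 0.994, 0.928 and 1.04 at 4 weeks, against 0.965, 0.878 and 1.18 at 1 week, a difference of -0.02. The test of water minus OPP for Col4a1 gave -0.62 with an adjusted p of 0.968. Col3a1, a fibrillar collagen chain, had 0.46, 0.631 and 0.631 at 4 weeks, against 1, 1.22 and 1.56 at 1 week (-1.13, SE 0.20, adjusted p 0.116), whereas its second probe gave 0.02.

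Of 28 measured stellate cell and matrix genes, 2 were higher and 7 lower at an unadjusted p under 0.05, and 0 passed. Their median was -0.13, against 0.01 over all genes, of which 4.04% were higher and 3.29% lower. Sparc, a collagen-binding matrix protein, had 0.595, 0.738 and 0.693 at 4 weeks, against 0.809, 1.11 and 1.22 at 1 week (-0.61, SE 0.14, adjusted p 0.291). Lower differences were also read for Col6a1 (-0.47), the gelatinase Mmp2 (-0.46) and Col5a1 (-0.31), and higher ones for Col5a2 (0.27) and the growth factor Hgf (0.22). The main chains of type I collagen lay nearer 0, with Col1a1 at -0.28 and Col1a2 at -0.16. Without the array with muscle RNA the list had 1 higher and 6 lower and a median of -0.08, and Col1a1 stood at -0.09 and Col1a2 at -0.08. In OPP mice, where 6.7% of all probes had an unadjusted p under 0.05, the list's median was -0.01, with 1 higher and 2 lower. Of all 14739 genes, 435 were higher and 653 lower in OPP mice. Matrix genes outside the smallest p of their list were chosen after their values were seen. In whole liver, fewer cells of a type and less RNA in each cell cannot be told apart.

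Metallothioneins had large negative differences. Mt2 had ratios of 0.711, 0.194 and 0.141 in the 4-week arrays, against 1.61, 2.62 and 1.29 in the 1-week arrays. The groups did not overlap, but 4-week replicate 1 stood well above the other 4-week arrays. Its difference was -2.71 (SE 0.49, 95% interval -3.73 to -1.69, adjusted p 0.116), and without 4-week replicate 1 it was -3.41 with an adjusted p of 0.00605. With any other single array left out, the limma adjusted p of Mt2 was between 0.184 and 0.554. Mt1 followed the same order of arrays, with 0.86, 0.221 and 0.139 at 4 weeks, against 1.29, 1.72 and 1.14 at 1 week (-2.19, SE 0.65, adjusted p 0.523, or 0.327 without 4-week replicate 1 and 0.499 to 0.821 without any other single array). At 18 hours the ratios had been 15.4, 11.6 and 15.3 for Mt2 and 3.12, 2.89 and 2.6 for Mt1.

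In OPP mice both genes already read low at 1 week. Mt2 stood at 0.119, 0.106 and 0.398 at 4 weeks, against 0.157, 0.118 and 0.153 at 1 week, and Mt1 at 0.0822, 0.0519 and 0.495 at 4 weeks, against 0.199, 0.0869 and 0.24 at 1 week. The OPP differences were 0.27 for Mt2 and -0.32 for Mt1, with groups that overlapped. Water minus OPP, the Mt2 change was -2.98 with an adjusted p of 0.968, so the difference between drinks did not pass over all probes. Of 15 measured glucocorticoid targets, a list that holds Mt2, 0 were higher and 4 lower at an unadjusted p under 0.05 and 0 passed. The list had a median of -0.13, or -0.25 with 0 higher and 5 lower without the array with muscle RNA. The other lower members were Lcn2 (-1.32), the tyrosine-degrading enzyme Tat (-0.53) and Ddit4, an inhibitor of mTOR signalling (-0.36), of which Tat and Ddit4 were chosen after their values were seen. In OPP mice 0 members were higher and 4 lower, with a median of -0.06, beside 435 higher and 653 lower of all 14739 genes.

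The members of the acute phase list lay on both sides of 0. Of 26 measured members of the list, 2 were higher and 6 lower at an unadjusted p under 0.05, 0 passed, and the median was -0.01; between 1 week and 18 hours, in arrays shared with this comparison, the median was -1.52. Saa3, a serum amyloid A made mainly outside hepatocytes, had 0.779, 1.55 and 1.06 at 4 weeks, against 0.857, 0.781 and 0.94 at 1 week, where 18 hours had given 246, 67 and 217. Hepatocyte-made Saa1 read 0.939, 0.36 and 0.33 at 4 weeks, against 1.06, 0.506 and 2.31 at 1 week (-1.16, SE 0.52, adjusted p 0.682), with overlapping groups. Lcn2, lipocalin-2, an iron-scavenging protein of acute inflammation, had 0.973, 0.255 and 0.465 at 4 weeks, against 2.02, 0.765 and 1.17 at 1 week (-1.32, SE 0.44, adjusted p 0.576). Both were highest in 4-week replicate 1 within their group, the array that was also highest in Mt1 and Mt2. Hp, haptoglobin, had a difference of 0.50, with 0.24 on its other probe. Orm2, an orosomucoid, had -0.36, or -0.55 without 4-week replicate 1. Without the array with muscle RNA the list had 0 higher and 6 lower and a median of -0.13, and Saa1 stood at -0.61 and Hp at 0.31. Saa3, Hp and Orm2 were chosen after their values were seen.

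**Figure D3:**
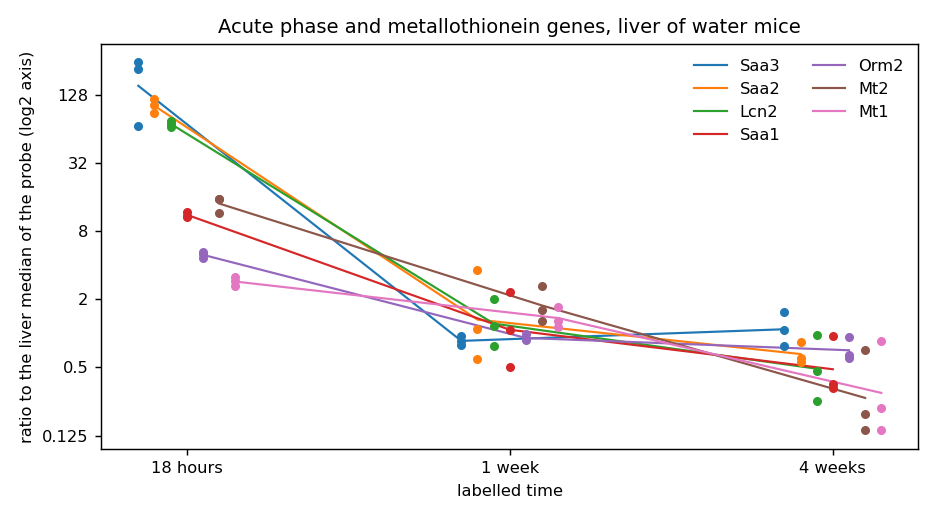
Ratios (log2 axis) of Saa1, Saa2, Saa3, Lcn2, Orm2, Mt1 and Mt2 in water liver at 18 hours, 1 week and 4 weeks; points are arrays and lines join the means of log2 values of 3 arrays. The serum amyloid genes stand between 10.7 and 246 at 18 hours and below 4 later, while Mt1 and Mt2 keep a further step between 1 week and 4 weeks in arrays 2 and 3 of the 4-week group.

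Glutathione S-transferases join glutathione to reactive compounds. Of 18 measured members, 2 were higher and 5 lower at an unadjusted p under 0.05, with a median of -0.09 and 0 passing. Of all genes, 4.04% were higher and 3.29% lower. Gstm3 had 0.737, 0.85 and 1.01 at 4 weeks, against 1.23, 2.8 and 3.24 at 1 week, without overlap (-1.38, SE 0.34, adjusted p 0.476). Gsta2 read 0.652, 1.31 and 1 at 4 weeks, against 1.43, 2.68 and 3.85 at 1 week (-1.37, adjusted p 0.57), and Gsta1 0.696, 1.2 and 1.05 at 4 weeks, against 1.33, 2.33 and 2.97 at 1 week (-1.13, adjusted p 0.57). Gsta1 and Gsta2 are close copies whose probes may share signal. Gstm2 (-0.74) and Gstm4 (-0.58) were the other lower members, while Gstm1, usually the most abundant form in mouse liver, had a difference of -0.09. All of these had stood lower at 18 hours than at 1 week, and the list's median for 1 week minus 18 hours was 1.10. Without the array with muscle RNA the count was 0 higher and 5 lower, with Gstm3 at -1.11. In OPP mice 0 members were higher and 2 lower, beside 435 higher and 653 lower of all 14739 genes, with Gstm3 at -0.04. Forms other than Gstm3 were chosen after their values were seen.

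Drug-metabolising cytochromes P450 had a median of 0.09 over 37 measured members, with 2 higher and 3 lower at an unadjusted p under 0.05, or 2 and 2 without the array with muscle RNA, and 0 passing. Cyp17a1, a steroid hydroxylase that is higher in female mouse liver, had 0.782, 0.615 and 0.836 at 4 weeks, against 1.73, 1.1 and 1.27 at 1 week (-0.86, SE 0.21, adjusted p 0.408). Cyp2c54 read 1.14, 1.58 and 1.8 at 4 weeks, against 1, 0.971 and 0.771 at 1 week (0.71, SE 0.21, adjusted p 0.516). Hsd3b5, a steroid enzyme of male mouse liver, stood at 1.02, 1.09 and 1.36 at 4 weeks, against 0.872, 0.869 and 0.453 at 1 week (0.72, SE 0.28, adjusted p 0.648), or 0.40 without that array. The 23 genes higher in male liver had a median of 0.11 (2 higher, 0 lower), or -0.04 (1 higher, 0 lower) without that array. The 22 genes higher in female liver had a median of -0.02 (1 higher, 3 lower), or 0.02 (1 higher, 2 lower) without that array. In OPP mice the male list had 6 higher and 2 lower and the female list 0 higher and 1 lower. Of all 14739 genes, 435 were higher and 653 lower there. In water mice, 3 of 18 targets of NRF2, the factor that senses oxidants, were higher and 1 lower, or 0 and 2 without the array with muscle RNA. Among them was Srxn1, sulfiredoxin, at -0.31 (adjusted p 0.645). Cyp2c54 and Hsd3b5 were chosen after their values were seen.

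Among genes of feeding and growth, Ppp1r3b, which brings a phosphatase to glycogen, had 1.06, 3.41 and 2.1 at 4 weeks, against 0.797, 0.939 and 0.658 at 1 week (1.32, SE 0.33, adjusted p 0.476). Igfbp1, a fasting-induced binding protein of insulin-like growth factors, had 0.433, 0.389 and 0.651 at 4 weeks, against 2.26, 2.25 and 0.747 at 1 week (-1.70, SE 0.45, adjusted p 0.476). The groups of both were apart, with the values spread several-fold within a group. Igfbp1 gave -1.29 in OPP mice and Ppp1r3b -0.36. Of 17 feeding and fasting genes, 2 were higher and 3 lower, or 2 and 4 without the array with muscle RNA, with a median of 0.02. Of 15 genes of the growth hormone axis, 2 were higher and 1 lower, or 1 and 1 without that array, and Igf1 itself had 1.08, 1.11 and 0.999 at 4 weeks, against 0.981, 1.01 and 0.895 at 1 week (0.14, SE 0.10, adjusted p 0.788, or 0.09 without that array). Dbp, a clock output factor, had a difference of -0.17 with a wide interval of -1.75 to 1.41, or -0.11 without that array and -0.33 without 4-week replicate 1, and 13 core clock genes had a median of 0.05 (2 higher, 0 lower, or 0 on either side without that array), led by Per2 at 0.47, whose other probe gave -0.07.

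Among amino acid and one-carbon enzymes, Bhmt, which remethylates homocysteine with betaine, had 0.728, 0.798 and 0.687 at 4 weeks, against 1.16, 0.997 and 0.886 at 1 week (-0.46, SE 0.10, adjusted p 0.339), and -0.30 in OPP mice. Its list of 19 genes had 4 higher and 2 lower, or 1 and 2 without the array with muscle RNA, with Shmt2 at 0.37, Shmt1 at 0.35 and Mthfd2 at -0.30, and a median of -0.00. Nags, which makes the activator of the urea cycle, stood at 1.23, 1.29 and 1.18 at 4 weeks, against 1, 0.949 and 0.887 at 1 week (0.38, SE 0.11, adjusted p 0.491). Its list of 21 genes had 1 higher and 2 lower, or 1 and 4 without that array, and a median of -0.06. The serine and folate enzymes, other than the smallest p of their list, were chosen after their values were seen.

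Ribosomal protein, complement, coagulation and hepatocyte identity lists lay slightly above 0, and each lost part of that shift without the array with muscle RNA. Of all genes, 4.04% were higher and 3.29% lower at an unadjusted p under 0.05. Of 66 ribosomal protein genes, 14 were higher and 0 lower at an unadjusted p under 0.05, 19 had all 4-week arrays above all 1-week arrays (against 7.3% of all genes) and 0 passed. Their median was 0.14, or 0.08 with 4 higher without that array, and -0.10 in OPP mice. Per array the ribosomal median was -0.02, 0.01 and 0.08 at 4 weeks, against -0.12, -0.01 and -0.19 at 1 week, so the groups met. Rps27 had the smallest p, with 1.06, 1.09 and 1.22 at 4 weeks, against 0.859, 0.907 and 0.859 at 1 week (0.36, SE 0.09, adjusted p 0.476). Of 19 complement genes, 3 were higher and 0 lower with a median of 0.17, or 1 higher and 2 lower with -0.02 without the array; C4bp, an inhibitor of complement, stood at 0.46, or 0.27 without it. Of 15 coagulation genes, 3 were higher with a median of 0.19, or 1 higher with 0.07 without it; Plg, plasminogen, stood at 0.55 on 1 probe and 0.09 on another. Of 16 hepatocyte identity genes, 1 was higher, the factor Foxa3 at 0.56, with a median of 0.16, or 0.10 without that array. The 15 pericentral hepatocyte genes had a median of -0.07 (0 higher, 2 lower), or -0.15 (0 higher, 4 lower) without that array. The 13 periportal hepatocyte genes had a median of -0.06 (0 higher, 0 lower), or -0.08 (0 higher, 2 lower) without that array. Alb, albumin, had 0.997, 0.815 and 1 at 4 weeks, against 1.46, 1.06 and 0.9 at 1 week (-0.26, SE 0.17, adjusted p 0.786, or -0.42 without that array).

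Genes of iron handling, red cells, sterol synthesis and the endoplasmic reticulum also had more members on the high side than on the low side. Of all genes, 4.04% were higher and 3.29% lower at an unadjusted p under 0.05. Without the array with muscle RNA, 357 of all genes were higher and 531 lower. Of 22 genes of iron and haem handling, 5 were higher and 0 lower at an unadjusted p under 0.05, with a median of 0.16, or 3 higher with 0.10 without the array with muscle RNA. In OPP mice 2 were higher and 3 lower, beside 435 higher and 653 lower of all 14739 genes, with a median of -0.01. Hamp, hepcidin, the hormone that limits iron export, had 1.1, 1.38 and 0.959 at 4 weeks, against 0.824, 0.734 and 0.556 at 1 week (0.70, SE 0.24, adjusted p 0.598). Fech, the last enzyme of haem synthesis, stood at 0.45 and at 0.17 and 0.08 on its other probes. Of 17 erythroid genes, 5 were higher and 0 lower, with a median of 0.08, or 4 higher with 0.04 without that array. Hba-a1, an alpha-globin, had 1.07, 1.34 and 1.45 at 4 weeks, against 1.04, 0.601 and 0.963 at 1 week (0.60, SE 0.23, adjusted p 0.625). Slc4a1, the anion exchanger of red cells, had 1.31, 1.36 and 1.16 at 4 weeks, against 1.01, 0.967 and 1.05 at 1 week (0.33, SE 0.10, adjusted p 0.523). Of 16 genes of the mevalonate pathway and sterol synthesis, 2 were higher and 0 lower with a median of 0.23, or 5 higher with 0.33 without that array, led by Nsdhl at 0.51 and Cyp51 at 0.49. Of 21 ER chaperones and genes of the unfolded protein response, 3 were higher and 0 lower with a median of 0.07, or 0 on either side without that array. Globin can come from blood left in the organ, whose amount was not tested. Hamp, Hba-a1, Slc4a1 and Cyp51 were chosen after their values were seen.

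**Figure D4:**
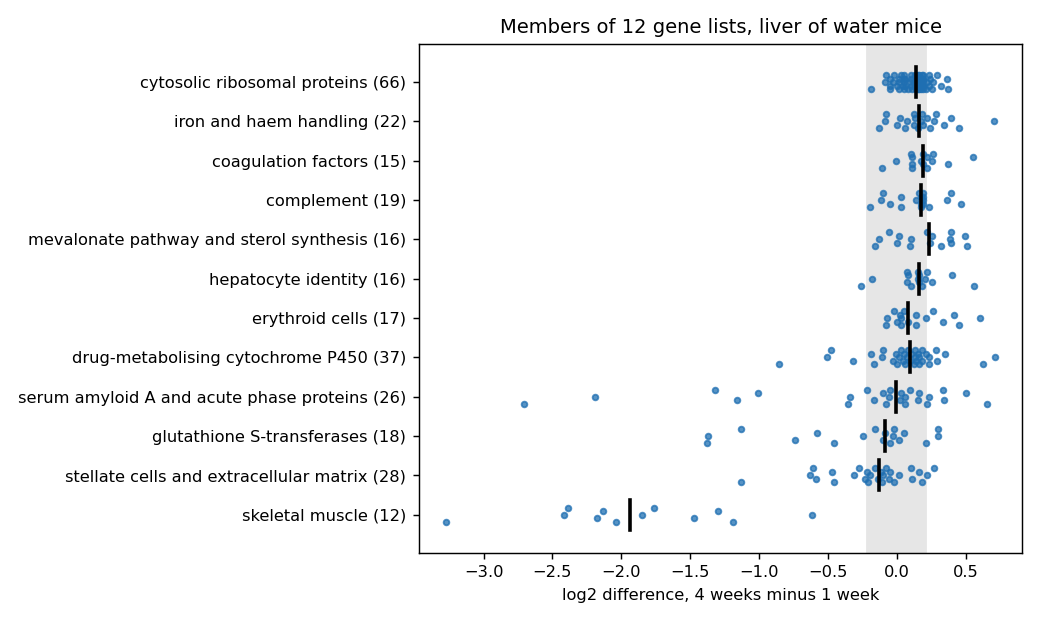
Log2 differences, 4 weeks minus 1 week, of the members of 12 lists in water liver; each point is a gene, black bars are list medians, numbers are genes measured, and the grey band holds the middle 90% of all genes, -0.22 to 0.21. The skeletal muscle list, at a median of -1.94, rests on 1-week replicate 3, and without that array its median is -0.11.

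Apart from chemokine ligands, the immune lists given here had few genes on either side of the unadjusted threshold. Of all genes, 4.04% were higher and 3.29% lower at that threshold. Of 31 interferon-stimulated genes, 0 were higher and 0 lower at an unadjusted p under 0.05, with a median of 0.06; without the array with muscle RNA 3 were lower. MHC class I genes (21 measured, median 0.08), class II genes (11, median 0.15) and B cell genes (10, median 0.01) had none on either side; without that array 2 B cell genes were higher. All 11 class II genes had differences above 0, and their median was 0.24 without that array. T cell genes (15, median 0.03) had 0 higher and 1 lower, or 2 and 1 without that array, and held Thy1, a surface protein of T cells and of fibroblasts, at -0.48 (adjusted p 0.476), or -0.31 without that array, and macrophage genes (20, median 0.07) held Lgals3, galectin-3, at 0.38 (adjusted p 0.619). Among 23 chemokine ligands, 5 were higher and 3 lower, or 3 and 0 without that array, with Cxcl12, a stromal chemokine, at 0.47 and -0.03 on 1 of its other probes. The lymphoid-organ chemokines Ccl21a (-0.59), Cxcl13 (-0.44) and Ccl19 (-0.25) were the lower ones, of which Ccl19 was named by the rule and the others after their values were seen. Cell cycle genes (31, median -0.02) had 2 higher and 2 lower, or 1 and 2 without that array, with Stmn1, stathmin, at 0.807, 0.834 and 0.782 at 4 weeks, against 1.03, 1.11 and 1.3 at 1 week (-0.50, SE 0.13, adjusted p 0.476).

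With 1 probe for each gene, none of the 53 lists had a called member; the called Igf2bp3 probe was not the one kept for that gene. Heat shock genes (18 measured) were led by Cryab, a small heat shock protein abundant in muscle, at 0.833, 0.9 and 0.926 at 4 weeks, against 0.951, 0.993 and 7.52 at 1 week; its difference was -1.12, or -0.13 without the array with muscle RNA. Tuba1a, a tubulin, likewise stood at -0.21 without it, in place of -0.80. Lyve1, a receptor of liver sinusoidal and lymphatic endothelium, had 0.761, 0.635 and 0.728 at 4 weeks, against 1.46, 0.812 and 1.07 at 1 week (-0.62, SE 0.18, adjusted p 0.516), and -0.63 without it. Its list of 16 endothelial genes had no common shift, with a median of -0.01 and 8 genes on each side of 0. At an unadjusted p under 0.05, 0 of them were higher and 2 lower. Ccn2 and Depp1, outside the lists, were chosen after their values were seen. Ccn2, a matrix-associated growth regulator, had 0.806, 0.872 and 1.19 at 4 weeks, against 2.33, 1.72 and 1.77 at 1 week (-1.03, SE 0.26, adjusted p 0.476). Depp1, a target of FOXO factors, had 0.657, 0.776 and 1 at 4 weeks, against 3.49, 1.7 and 1.27 at 1 week (-1.29, SE 0.32, adjusted p 0.476).

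Immunoglobulin probes set 1 array of the 4-week group apart. J558 cells are known to secrete an IgA with a lambda light chain, and the probes are named here by the text of their identifiers. The probe of lambda constant 1 had ratios of 9.13, 1.6 and 1.18 at 4 weeks, against 0.919, 1.21 and 1.23 at 1 week (1.22, SE 0.61, adjusted p 0.708). Lambda constant 3 read 6.51, 1.23 and 1.12 at 4 weeks, against 0.948, 1.04 and 1.34 at 1 week, and lambda variable 2 read 4.87, 1.29 and 0.908 at 4 weeks, against 0.879, 0.782 and 1 at 1 week. Lambda constant 2 had 3.52, 1.19 and 1.02 at 4 weeks, against 1.08, 0.898 and 1.58 at 1 week. In each case 4-week replicate 1 alone stood high, and without it the differences were 0.31 for lambda constant 1, 0.10 for lambda constant 3, -0.06 for lambda constant 2 and 0.29 for lambda variable 2. The heavy constant alpha probe gave 0.976, 1.02 and 1.01 at 4 weeks, against 0.971, 1.05 and 0.956 at 1 week, a difference of 0.02. Lambda constant genes resemble each other, so their probes may share signal. In OPP mice replicate 1 of the 4-week group was also the high one, with lambda constant 1 at 5.67, 0.98 and 0.85 at 4 weeks, against 0.985, 1.05 and 0.84 at 1 week.

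Over all 203 immunoglobulin probes, 0 passed in liver, 7 were higher and 4 lower at an unadjusted p under 0.05, and the median difference was 0.01. In spleen, over the same times, 104 of these probes passed and the median was 0.41. There 30.3% of all probes passed, and the median over all genes was 0.17. The 85 kappa variable probes had a median of -0.01 in liver, against 0.81 in spleen. Plasma and myeloma cell markers had array medians of 0.01, 0.07 and -0.02 in liver at 4 weeks, against -0.15, -0.03 and -0.17 at 1 week, so the array with high lambda probes was not the highest in them.

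**Figure D5:**
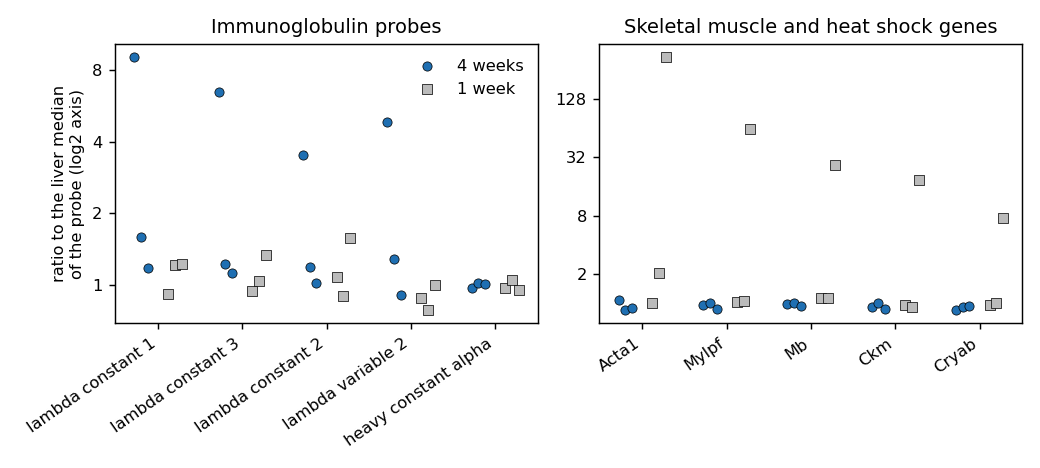
Ratios (log2 axis) on each array of water liver, 4 weeks (circles) beside 1 week (squares), for immunoglobulin probes and for muscle genes with Cryab. 1 array of the 4-week group stands high in the lambda probes, up to 9.13, and not in heavy constant alpha; 1 array of the 1-week group stands high in the muscle genes, up to 354.

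Between drinks, the change over time was compared in the same fit. In OPP mice 1 of 23982 probes passed (0.00417%), the second Igf2bp3 probe, and in the test of water minus OPP 0 passed, with 1160 probes (4.84%) at an unadjusted p under 0.05. The smallest p in that test belonged to Etfbkmt, at 0.77 in water and -0.57 in OPP mice, a difference of 1.35 (adjusted p 0.266). Ppp1r3b stood at 1.32 in water and -0.36 in OPP mice, where it read 2.34, 1.99 and 1.02 at 4 weeks, against 1.53, 2.28 and 2.9 at 1 week. Cdca4 (0.19 in water, -0.44 in OPP mice), Ppp1r14b (0.25 and -0.26) and Dusp1, a phosphatase of stress kinases (0.17 and -0.65), were also among the genes with the smallest p. None of these differences between drinks passed. In OPP mice replicate 1 of the 4-week group carried pancreatic acinar genes, and the acinar list had a median difference of 1.60 there, against -0.05 in water mice. Skeletal muscle markers were raised in OPP 4-week replicate 3 (median 2.46) and OPP 1-week replicate 1 (0.72).

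The liver of water mice had fewer called probes than the spleen over the same interval. In spleen 7278 probes (30.3%) passed between 4 weeks and 1 week, and the liver change differed from the spleen change for 2565 probes (10.7%), with 163 (0.68%) higher and 2402 (10.0%) lower in liver. With each array centred on its median the split was 384 and 869, and with quantile normalisation 585 and 640. Spleen arrays had medians of 0.08 to 0.11 at 4 weeks and of -0.06 to 0.00 at 1 week, a shift that liver arrays did not show. Ccl19 had a difference of -0.25 in liver and 0.94 in spleen (liver minus spleen -1.19, adjusted p 6.44e-05). H2-K1, a class I molecule, had -0.05 in liver and 1.04 in spleen (-1.09, adjusted p 0.000533), and Kdelr1, an ER retrieval receptor, -0.25 and 0.81 (-1.06, adjusted p 0.000533). Rfk, riboflavin kinase, had -0.27 and 0.84 (-1.11, adjusted p 0.000167). In these genes the liver value was near 0 or below it, and the spleen value was the larger part of the difference. Nox4 (1.24, adjusted p 0.000674), S100a10 (-1.13, adjusted p 0.000674) and Mt2 (-2.26, adjusted p 0.0227) also differed between organs, and Nox4 had -0.12 in spleen. All were named by their small p in liver, and this test holds the same liver difference. A pass here is therefore no separate evidence of a change in liver.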

How the data were processed

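Total RNA of liver and spleen was biotin-labelled and hybridised to Illumina arrays, 36 in 12 groups of 3, per the labels. The authors deposited a linear ratio for 23982 probes; a check of the file showed that it is relative to the probe's median over the 18 arrays of its tissue, within 0.0005 of 1 in liver. Background correction, scaling between arrays and the genome build are not given in the sources used here. A second table was not used, because 72 of its columns match no sample label.

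Ratios were taken to log2 and fitted with limma 3.58.1 in R 4.3.3 (lmFit, contrasts.fit, eBayes) over the 18 liver arrays, 1 coefficient for each group, with 12 residual degrees of freedom. The spleen contrast and the comparison of liver with spleen used all 36 arrays. No filter, offset or further scaling was applied, and Benjamini-Hochberg adjustment ran over all probes. Differences are 4 weeks minus 1 week on the log2 scale, with the model's SE.

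The platform annotation gave 1 symbol to 19343 probes, for 14739 genes, and 4639 stayed unnamed. Of several probes, a gene stands with the one of highest SD over the 12 liver arrays outside the comparison. The members, 53 gene lists and tests were chosen with earlier results of these data known. Named genes are those called, otherwise the 10 of smallest p, the smallest p of each list, the 8 of smallest p in each test between drinks or organs, and Alb, Saa1, Mt1, Dbp and Igf1; others are marked in the text.

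The number of arrays limits the precision. Same-numbered 4-week and 1-week water arrays correlated at 0.0113, 0.101 and 0.0781 in their deviations, so the numbers were not taken as pairs. Alternatives were the compared arrays alone, replicate number as a block, array weights, an offset of 0.1, centring, quantile normalisation, a robust prior, the more variable probes, the mean of a gene's probes, and leaving out each array. List values without 1-week replicate 3 or 4-week replicate 1 were added after seeing the data. The pipeline was tested on simulated data.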

Additional observations from a re-analysis of the deposited data

Results flagged for a closer look

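The results flagged here are differences between the liver change and the spleen change of water mice, 4 weeks minus 1 week, that passed at an adjusted p under 0.05 in limma. The test holds the liver difference by which many of these genes were named. A pass is therefore no separate evidence of a change in liver. Lower in liver means a change below that of spleen, not always a fall in liver. Igf1 had 0.14 in liver and 0.63 in spleen, H2-K1 -0.05 and 1.04, and Cd37 -0.12 and 0.46. With each array centred on its median, 869 probes in place of 2402 were lower in liver. Higher in liver were Nox4, at 1.24 on the log2 scale, and Etfbkmt, at 0.89. Lower in liver among matrix, vessel and fibroblast genes were Col4a1 (-0.70), Col3a1 (-1.27), Thbd (-0.94), Thy1 (-0.78) and Lyve1 (-0.64). Lower in liver among metal, steroid and detoxifying genes were Mt2 (-2.26), Slc39a4 (-0.95), Cyp17a1 (-0.94), Gstm3 (-1.79) and Srxn1 (-0.43). Of genes of growth, Igfbp1 gave -1.78, Igf1 -0.49 and the called Igf2bp3 probe -0.61. Stress and immune genes on the lower side were Atf5 (-0.93), Klf6 (-0.69), Nfkbia (-0.83), Dhx58 (-0.51), Cd37 (-0.59), Ccl19 (-1.19) and H2-K1 (-1.09). Cytoskeletal and other genes were S100a10 (-1.13), Tuba1a (-1.40), Stmn1 (-0.97), Dpysl3 (-0.77), Rfk (-1.11), Kdelr1 (-1.06), Myadm (-0.88) and Hdlbp (-0.94). Other probes did not pass for Col3a1 (-0.17, adjusted p 0.372), Slc39a4 (-0.29, adjusted p 0.25), Hdlbp (-0.12, adjusted p 0.662) and Igf2bp3 (-0.22, adjusted p 0.353). Without the 1-week liver array with muscle RNA, Tuba1a stood at -0.81 (adjusted p 0.0171), and Lyve1 (-0.65, adjusted p 0.0517) and Srxn1 (-0.34) no longer passed. Groups of 3 arrays are too small for a test of single stray arrays.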

How the results depend on the processing

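The count of called probes in water liver was 1. It was 0 with only the compared arrays, 2 with the replicate number as a block (Igf2bp3 and Col4a1), 3 with array weights, 2 with an offset on the ratio, 3 with each array centred on its median, 24 with quantile normalisation (14 higher, 10 lower), 2 with a robust prior and 2 with the more variable probes. Leaving out 1 array gave 0 to 3: 0 without 1-week replicate 2, 4-week replicate 2 or 4-week replicate 3, 2 without 1-week replicate 1, and 3 without 4-week replicate 1. The cause of these moves was not tested. The called Igf2bp3 probe passed in 11 of 15 settings, the main one included, with a difference between -0.83 and -0.55 and an adjusted p between 0.00171 and 0.116. In OPP liver the count of 1 became 3 with only the compared arrays, 10 with array weights and 3 with quantile normalisation, and 0 to 3 with 1 array left out. Water minus OPP, the count of 0 became 1 without water 4-week replicate 1 and stayed 0 in the other settings, with 0 to 1 over arrays left out. Liver minus spleen, the count of 2565 became 912 with only the compared arrays, 1253 with centring and 1225 with quantile normalisation, and 882 to 4124 with 1 array left out, lowest without spleen 1-week replicate 3. Lists with a called member numbered 0, and 2 with centring. The replicate block gave 1, 0 and 2443 calls for OPP liver, water minus OPP and liver minus spleen. Of 1756 values of named genes under an alternative, 1708 kept direction and side of the threshold, 25 moved, 4 lost and 19 gained a call, and 0 reversed. Of 212 list medians under an alternative, 12 moved by more than the spread between arrays. Ratios keep no signal level, so probes near background could not be set aside.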
